A study of Mus musculus with 7 samples.

Results

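The genes of mitosis described here are 46 genes of the cell division machinery, taken by name from the 46959 features of the deposited table. They cover the cyclins of G2 and mitosis, mitotic kinases, the spindle checkpoint, the kinetochore, mitotic kinesins, the chromosomal passenger complex, cytokinesis and condensin. All 46 were found, and all 46 passed the filter on low values, so none had to be set aside. RNA came from mouse splenic B cells kept for 4 days in culture with lipopolysaccharide (LPS, 1 µg/mL), which makes B cells divide, and interleukin 4 (IL-4, 20 ng/mL). Cells labelled cKO MED1 (4 libraries) were set against wild-type (WT) cells (3 libraries), and both groups had the same activation. Med1 is a subunit of Mediator, the large complex through which transcription factors act on RNA polymerase II. The Cre driver, the allele, the strain and the age of the mice are not given in the sources used here. The labels do not say whether libraries came from separate animals, and the p-values therefore refer to the spread among these 7 samples, which may be technical.

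A dividing cell makes most of these RNAs only from late S phase to mitosis and breaks down many of the proteins as it leaves mitosis. Their promoters are known for the CHR, a short element bound by the MuvB core of the DREAM and B-Myb complexes, and for CCAAT boxes bound by NF-Y. DREAM keeps the genes silent in resting cells, and B-Myb with FoxM1 turns them on in G2. Activated B cells in LPS culture divide rapidly before they switch isotype or become antibody-secreting cells, so mitotic RNA is abundant in such cultures.

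Promoter sequences were taken from RefSeq (build GRCm38.p6), which gave a window of 300 bases for 39 of the 46 genes, from 250 bases before the annotated start to 50 after it. The windows shown belong to the lowered gene with the smallest adjusted p in each of 5 role groups. They are given because most members share 2 short motifs that the choice of genes did not use. Capitals mark TTTGAA (the CHR core), TTCGAA (a CHR variant) and CCAAT, each searched on both strands, so that TTCAAA and ATTGG are marked too.
Ndc80, chr17:71526808-71527107, minus strand: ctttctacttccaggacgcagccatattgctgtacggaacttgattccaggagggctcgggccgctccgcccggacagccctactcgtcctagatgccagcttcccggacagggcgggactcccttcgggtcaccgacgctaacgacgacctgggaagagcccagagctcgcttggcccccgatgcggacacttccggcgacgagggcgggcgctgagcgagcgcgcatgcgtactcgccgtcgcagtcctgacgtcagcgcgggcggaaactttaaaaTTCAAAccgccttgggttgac
Cdc20, chr4:118437294-118437593, minus strand: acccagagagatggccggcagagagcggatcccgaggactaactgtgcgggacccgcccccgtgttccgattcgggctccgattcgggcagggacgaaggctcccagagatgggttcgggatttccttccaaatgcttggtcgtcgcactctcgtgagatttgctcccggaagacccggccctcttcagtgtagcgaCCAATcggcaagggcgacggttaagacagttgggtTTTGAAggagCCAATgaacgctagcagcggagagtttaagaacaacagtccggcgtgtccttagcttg
Kif4, chrX:100625815-100626114, plus strand: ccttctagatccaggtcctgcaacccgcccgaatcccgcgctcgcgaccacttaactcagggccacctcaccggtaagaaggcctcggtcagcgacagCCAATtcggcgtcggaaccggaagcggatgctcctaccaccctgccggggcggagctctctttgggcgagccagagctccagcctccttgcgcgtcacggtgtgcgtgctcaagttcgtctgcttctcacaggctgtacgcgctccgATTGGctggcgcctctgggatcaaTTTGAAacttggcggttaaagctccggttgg
Smc2, chr4:52438971-52439270, plus strand: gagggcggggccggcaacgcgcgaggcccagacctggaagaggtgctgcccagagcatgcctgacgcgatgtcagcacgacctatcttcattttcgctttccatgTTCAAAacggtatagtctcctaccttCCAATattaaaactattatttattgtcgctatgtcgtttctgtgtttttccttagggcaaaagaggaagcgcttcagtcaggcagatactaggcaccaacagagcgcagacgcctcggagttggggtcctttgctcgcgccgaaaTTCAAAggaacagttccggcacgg
Nusap1, chr2:119618048-119618347, plus strand: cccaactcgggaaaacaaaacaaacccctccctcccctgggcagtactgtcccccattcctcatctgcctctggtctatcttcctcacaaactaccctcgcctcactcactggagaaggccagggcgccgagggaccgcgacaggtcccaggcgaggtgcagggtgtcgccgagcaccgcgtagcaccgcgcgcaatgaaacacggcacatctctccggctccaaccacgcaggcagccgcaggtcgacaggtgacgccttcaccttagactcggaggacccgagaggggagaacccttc

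The Cdc20 window holds TTTGAA 18 bases before the start with CCAAT boxes whose first bases lie 53 and 8 bases before the start. In the Kif4 window the CHR core begins at base 20 after the start, in Ndc80 at base 30 and in Smc2 at base 27, with a further Smc2 copy that begins 145 bases before the start. The Nusap1 window holds none of these letters. TTTGAA was present in 29 of 39 member windows (74.4%), against 12.2% of the 11262 windows of tested genes that RefSeq gave. CCAAT was present in 28 of 39 (71.8%), against 38.5% of all. A CHR core or its variant together with CCAAT stood in 26 of 39 member windows (66.7%), against 5.96% of all tested genes and 6.55% of windows among the 6020 tested genes highest in mean level. Other mitotic genes, listed below, held TTTGAA in 35 of 91 windows (38.5%) and CCAAT in 50 (54.9%). They held a CHR core or variant together with CCAAT in 27 (29.7%). DNA replication genes held TTTGAA in 4 of 41 windows (9.76%) and CCAAT in 26 of 41 (63.4%). Their share of CHR cores was near that of all genes, and their share of CCAAT near that of the 46 mitotic genes. A match is a match of letters, not a measured binding site. Members with TTTGAA (29) had a median log2 fold change of -0.39 and those without it (10) a median of -0.31, and their ranges, -0.64 to -0.13 and -0.58 to -0.12, covered each other almost wholly.

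**Figure D1:**
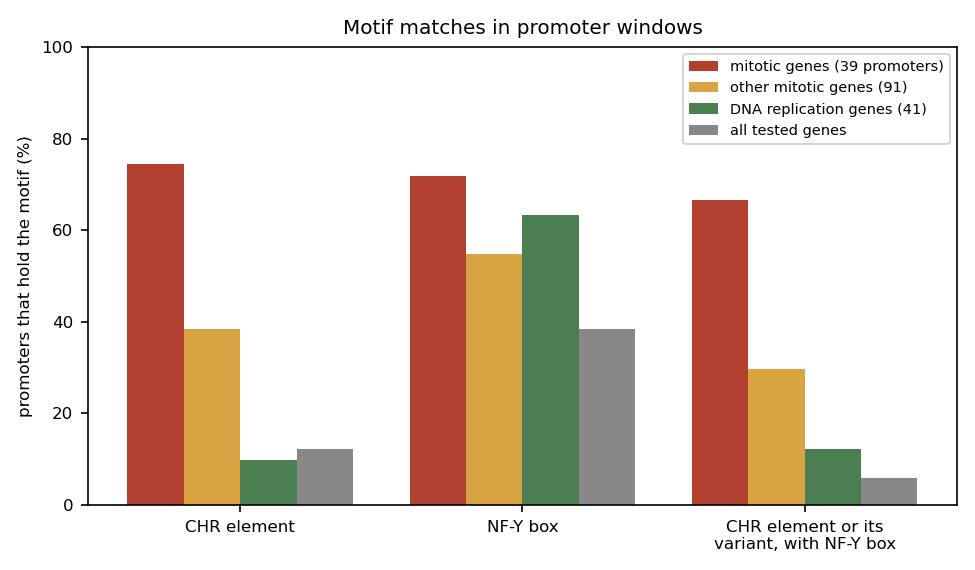
Share of promoter windows (percent, vertical axis) that hold the CHR core, the box bound by NF-Y, or a CHR core or variant together with that box, for the mitotic genes, other mitotic genes, DNA replication genes and all tested genes. The CHR core stands in 74.4% of the mitotic windows, in 38.5% of those of other mitotic genes and in 12.2% of all windows. Replication genes, at 9.76%, lie near the share of all windows.

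The deposited values were reads divided by a size factor, from which whole reads were recovered, 31937372 to 49603193 per cKO MED1 library and 54736580 to 61149274 per WT library. Every cKO MED1 library was therefore shallower than every WT library. Med1 had 2585, 2172, 2249 and 2436 normalised reads in cKO MED1 replicates 1 to 4, against 4755, 4173 and 4210 in WT replicates 1 to 3, and 53.9% of the WT level remained (log2 fold change -0.89 with SE 0.09, adjusted p = 0.000174 by limma). B cell markers were high in all libraries, with a summed level of 285200 to 330800 reads in cKO MED1 and 346200 to 358100 in WT. Cd74, the most abundant of them, hardly moved (0.004). Of the 9 markers 5 were called lower (55.6%), among them Cd79a (-0.88) and Ms4a1 (-0.66), and 0 higher. The median log2 fold change of the list was -0.37. Of the 6020 tested genes highest in mean level, 27.6% were called lower. The 3 CD3 chain genes of T cells stood at 0 to 32.9 reads in cKO MED1 libraries and 1.38 to 12.0 in WT libraries, and the 7 neutrophil markers together at 25.8 to 111.6 in cKO MED1 and 7.57 to 21.2 in WT. The Y-linked gene Ddx3y was near 0 in cKO MED1 replicates 1, 2 and 4 (at most 4.07 reads) and present in cKO MED1 replicate 3 (4470) and in all WT libraries (4496 to 4895), so that sex went largely with genotype. Xist, the RNA of the inactive X chromosome, had 36380 to 41070 reads in cKO MED1 replicates 1, 2 and 4 and 48.7 in replicate 3, against 59.2, 1241 and 11.2 in WT replicates 1 to 3. WT replicate 2 thus held Xist reads beside its Ddx3y reads, at a low level. Summed marker reads of dendritic cells were 3519 to 4634 in cKO MED1 and 2384 to 3339 in WT, and the T cell, NK cell, macrophage, erythroid, stromal and plasma cell sums overlapped between groups. Such sums rest on the most abundant genes of a list, and means over the tested genes of a list differed from them. The mean log2 level relative to WT of the stromal and endothelial list was 0.13, 0.86, 1.32 and 2.15 in cKO MED1 replicates 1 to 4, against -0.62, 0.24 and 0.38 in WT replicates 1 to 3, with Vwf (2.10) and Kdr (1.40) called higher and Pecam1, which holds most of the reads, called lower (-0.54). That of the T cell list was -0.46, 0.59, 0.88 and 1.28 in cKO MED1, against -0.17, -0.04 and 0.20 in WT, while its most abundant gene, Lck, fell (-0.49). That of the plasma cell list was -1.08, -1.30, -0.49 and -1.10 in cKO MED1, against -0.14, -0.23 and 0.38 in WT, without overlap. In that list Ly6c2 (-5.02), Jchain (-1.58) and Sdc1 (-1.22) fell, and the regulators Prdm1 (0.71) and Irf4 (0.41) rose. The regulator Xbp1 (-0.342), Tnfrsf17 (-1.245) and Mzb1 (0.323) did not pass, so neither regulators nor other genes of the list moved as 1 set. The part of these cell types in the results was not tested. Reads of 1427 olfactory and vomeronasal receptor genes, which B cells do not use, stood at 0.198, 0.278, 0.527 and 0.902 normalised reads per kb of exon in cKO MED1 replicates 1 to 4 and at 0.093, 0.207 and 0.167 in WT replicates 1 to 3.

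Mitotic genes had lower means in cKO MED1 than in WT cells in every role group, by modest amounts. By limma's test with Benjamini-Hochberg adjustment over 18062 genes, 33 of the 46 fell (71.7%), 0 rose, and 13 did not pass at an adjusted p of 0.05. The share that fell ran from 28.6% of the kinetochore and centromere group to 100% of the mitotic kinases and of the chromosomal passenger subunits. At an unadjusted p under 0.05 by limma, 37 of the 46 were lower and 0 higher. The share of all tested genes at that level was not counted, so the 37 have no background beside them. EdgeR and DESeq2 also called 0 of the 46 higher. At the adjusted p of 0.05, 14.6% of all tested genes fell and 13.4% rose. Mitotic genes are strongly expressed, and among the 6020 tested genes highest in mean level, which hold 43 of the 46, 27.6% fell and 5.40% rose. The members' median log2 fold change was -0.38, against 0.04 for all tested genes and -0.15 for those 6020. All 46 fold changes were negative, from -0.64 to -0.12, so cKO MED1 means stood at 64.2% to 92.1% of the WT means. With library sex as a covariate, described below, limma called 0 of the 46 lower, beside 0.659% of all tested genes. In RNA from whole cultures, fewer cells in G2 and mitosis and less mitotic RNA per cell cannot be told apart.

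Every cKO MED1 library lay below every WT library in 34 of the 46 genes, against 19.8% of all tested genes and 36.4% of the 6020 highest. The summed level of the 46 genes was 189013, 180085, 182622 and 150941 normalised reads in cKO MED1 replicates 1 to 4, against 256356, 212295 and 222115 in WT replicates 1 to 3. Top2a and Mki67 alone made up 14.9% and 14.5% of the WT sum. The mean log2 level of the 46 genes, relative to WT, was -0.31, -0.30, -0.29 and -0.58 in cKO MED1 replicates 1 to 4 and 0.16, -0.08 and -0.08 in WT replicates 1 to 3. Each group thus had close libraries and a single library farther out. cKO MED1 replicate 4 was the lowest library in 42 of the 46 genes and WT replicate 1 the highest in 44. The shares of all tested genes with these extremes were not counted. The same 2 libraries stood at the ends of the first principal component of all tested genes, at 106.09 and -100.36. That component, the main axis of variation, held 71.5% of the variance, so their extreme position was not particular to mitotic genes.

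These 2 libraries carry part of the calls. Without cKO MED1 replicate 4, limma called 15 of the 46 genes lower, with a median of -0.28, and without WT replicate 1 it called 8, with a median of -0.34. Calls fell among all tested genes too, with 8.9% and 5.25% called lower in these fits, against 14.6% in the reported fit. In both cases all 46 fold changes stayed negative. The same 2 libraries stood at the ends of the receptor-gene reads, cKO MED1 replicate 4 highest at 0.902 and WT replicate 1 lowest at 0.093 per kb. cKO MED1 replicate 1 and WT replicate 2 had close values of those reads, 0.198 and 0.207 per kb, and cKO MED1 replicate 1 was the lower in 41 of the 46 genes, beside 50.1% of all tested genes and 58.7% of the highest. This pair also differed in Ddx3y (4.07 against 4496 reads) and in depth (33924364 against 55453522 recovered reads). A comparison of 1 library with 1 library is a description and cannot separate these differences from genotype. After a level measured on the receptor genes was subtracted per kb of exon, 31 of the 46 were called lower, beside 14.3% of all tested genes. The members' median was then -0.37. The members held 158 to 3790 reads per kb in WT, so a subtraction of this size could hardly change them. The part of whatever goes with the receptor-gene reads was not tested.

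**Figure D2:**
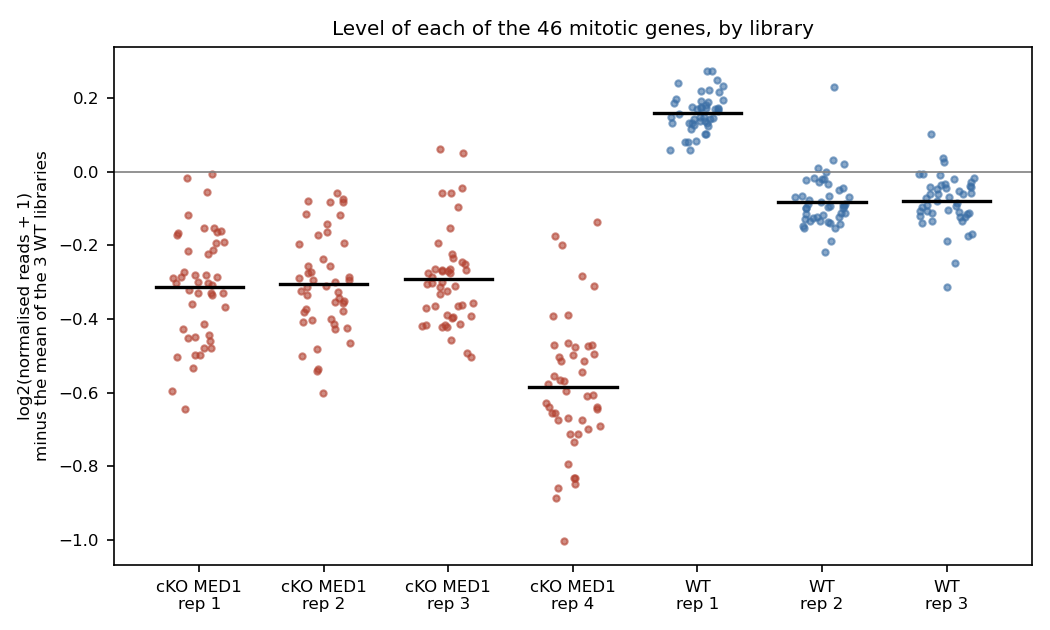
Level of each of the 46 mitotic genes in each library, as log2(normalised reads + 1) minus the gene's mean over the 3 WT libraries. Points are genes and black lines are means per library. cKO MED1 replicates 1 to 3 lie near -0.3, cKO MED1 replicate 4 near -0.58 and WT replicate 1 near 0.16.

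When library sex entered the fit as a covariate, limma called 0 of the 46, and it called 0.659% of all tested genes lower. At an unadjusted p under 0.05, 11 of the 46 passed, and the share of all tested genes was not counted. The members' median was then -0.30, with 44 of 46 fold changes negative. That fit rests on the single male cKO MED1 library, and sex and genotype cannot be told apart in the other 3. In this male library, cKO MED1 replicate 3, 40 of the 46 genes were below all 3 WT libraries. Of all tested genes 38.4% were below all WT libraries in that library, and 64.0% of the 6020 highest. The counts in cKO MED1 replicates 1, 2 and 4 were 40, 38 and 45 of the 46, beside 36.6%, 33.7% and 39.4% of all tested genes and 52.8%, 51.5% and 66.2% of the highest. Kif4, the kinesin gene on the X chromosome, had 2393 reads in the male cKO MED1 library and 2676, 2410 and 2158 in the other 3, against 3853, 3114 and 3171 in WT.

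Of the cyclins and their kinase, 3 of 4 fell. Ccnb1, which encodes the cyclin B1 that drives entry into mitosis, had 2877, 3180, 3497 and 2527 normalised reads in cKO MED1 replicates 1 to 4, against 5286, 4363 and 3947 in WT replicates 1 to 3. The groups did not overlap (log2 fold change -0.59 with SE 0.13, adjusted p = 0.00977 by limma). Ccnb1 lies on chromosome 13 from 100778650 to 100786570 on the minus strand (GRCm38). Its relative Ccnb2 stood at 1969, 2141, 2106 and 1631 reads in cKO MED1 libraries and at 2348, 2216 and 2194 in WT libraries, a difference of -0.21 that did not pass (limma adjusted p = 0.145). The ratio of Ccnb1 to Ccnb2 reads within a library, which no scaling can change, was 1.46, 1.49, 1.66 and 1.55 in cKO MED1 and 2.25, 1.97 and 1.80 in WT, with no overlap. Ccna2, the cyclin of S phase and G2, fell by 0.42 and Cdk1, the partner of these cyclins, by 0.34 on the log2 scale. Cdk1 passed narrowly (limma adjusted p = 0.049) and lost its call in 14 of 24 alternatives.

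All 5 mitotic kinases fell. Plk1, a kinase of mitotic entry, spindle assembly and cytokinesis, had the largest fall of the 46. It stood at 1533, 1432, 1583 and 1083 reads in cKO MED1 libraries, against 2625, 1955 and 1999 in WT libraries. No cKO MED1 value reached a WT value, and 64.2% of the WT mean remained (log2 fold change -0.64 with SE 0.14, adjusted p = 0.0108 by limma). Plk1 lies on chromosome 7 from 122159439 to 122169873. Aurka, the Aurora kinase of centrosomes and spindle poles, fell by 0.51, Aurkb, the kinase of the chromosomal passenger complex, by 0.38 and Ttk, the checkpoint kinase Mps1, by 0.37. Bub1, a kinetochore kinase of the checkpoint, fell least of these, with 3131, 3387, 3095 and 2637 reads in cKO MED1 and 4366, 3705 and 3600 in WT (log2 fold change -0.35 with SE 0.11, adjusted p = 0.0342 by limma).

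Among genes of the spindle checkpoint and of anaphase, 4 of 6 fell. Cdc20 encodes the activator through which the anaphase-promoting complex starts anaphase, and its promoter is one of those shown above. It had 2375, 2314, 2502 and 1850 reads in cKO MED1 libraries, against 3904, 3098 and 3118 in WT libraries. The groups were well separated (log2 fold change -0.58 with SE 0.12, adjusted p = 0.00838 by limma). Ube2c, the ubiquitin-conjugating enzyme of the same complex, fell by 0.49, Espl1, the protease separase that cuts cohesin, by 0.42 and Bub1b, the checkpoint protein BubR1, by 0.31. The call of Bub1b was lost in 12 of 24 alternatives. Pttg1, which encodes the separase inhibitor securin, had the fewest reads of the 46, not counting length, at 365.9, 327.5, 338.5 and 369.7 reads in cKO MED1 and 430.3, 477.4 and 327.4 in WT. These values overlapped (log2 fold change -0.22, limma adjusted p = 0.228). Mad2l1, the checkpoint protein that holds Cdc20 inactive, overlapped as well, at 1594, 2091, 2389 and 1556 reads in cKO MED1 and 2555, 2339 and 2051 in WT (limma adjusted p = 0.144).

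In the kinetochore and centromere group 2 of 7 fell (28.6%), the lowest share of the role groups. It lay near the 27.6% of the 6020 highest genes. Both calls were in the NDC80 complex, the 4-subunit rod that binds microtubules. Ndc80 had 1137, 1165, 1102 and 968.1 reads in cKO MED1 libraries, against 1714, 1544 and 1443 in WT libraries, the smallest adjusted p of the 46 (log2 fold change -0.52 with SE 0.10, adjusted p = 0.00509 by limma). Spc24 had 712.7, 841.2, 866.6 and 603.9 reads in cKO MED1 and 1279, 1075 and 907.0 in WT (log2 fold change -0.52 with SE 0.15, adjusted p = 0.0246 by limma). The partners Nuf2 and Spc25 had log2 fold changes of -0.24 and -0.23 and overlapping groups (limma adjusted p = 0.128 and 0.196). The ratio of Spc24 to Spc25 reads was 0.742, 0.734, 0.669 and 0.686 in cKO MED1 and 0.960, 0.849 and 0.803 in WT. That of Ndc80 to Nuf2 was 0.725, 0.574, 0.535 and 0.593 in cKO MED1 and 0.727, 0.769 and 0.694 in WT, so that cKO MED1 replicate 1 lay among the WT libraries. Cenpa, the histone variant that marks centromeres, stood at 3026, 3319, 3352 and 2641 reads in cKO MED1 and 3833, 3392 and 3173 in WT, which overlap (log2 fold change -0.17, limma adjusted p = 0.235). The kinesin Cenpe and the large corona protein gene Cenpf gave -0.23 and -0.20 without passing.

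Of 8 mitotic kinesins, 6 fell. Kif20a, the midzone kinesin that brings Plk1 and Aurora B to the cleavage plane, led with 2839, 2741, 2887 and 2333 reads in cKO MED1, against 4415, 3559 and 3450 in WT (log2 fold change -0.49 with SE 0.11, adjusted p = 0.0111 by limma). It was followed by the chromokinesin Kif4 (-0.49, limma adjusted p = 0.0092) and by Kif15 (-0.46), a kinesin that helps keep spindle poles apart. Kif22, a second chromokinesin, fell by 0.42, Kif2c, which takes microtubules apart at centromeres, by 0.39 and Kif11, the kinesin that pushes spindle poles apart, by 0.37. Kif18a, which damps chromosome movements at the metaphase plate, changed least of all 46, at 1386, 1465, 1491 and 1373 reads in cKO MED1 and 1614, 1561 and 1479 in WT. Its groups overlapped (log2 fold change -0.12 with SE 0.08, adjusted p = 0.278 by limma). Kif23, the kinesin of the centralspindlin complex, gave -0.28 without passing (limma adjusted p = 0.0798).

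All 3 subunits of the chromosomal passenger complex other than the kinase fell. Birc5, which encodes survivin, had 2077, 2128, 2247 and 1675 reads in cKO MED1, against 3149, 2541 and 2362 in WT (log2 fold change -0.40 with SE 0.12, adjusted p = 0.0355 by limma). Incenp, the scaffold of the complex, had 2913, 2599, 2758 and 2368 reads in cKO MED1, against 3765, 3089 and 3034 in WT (log2 fold change -0.31 with SE 0.11, adjusted p = 0.0483 by limma). The groups were apart in both genes, with a narrow gap in each, and Cdca8, which encodes borealin, fell by 0.37. Incenp lost its call in 13 of 24 alternatives, Cdca8 in 9 and Birc5 in 8. Of the spindle assembly and midzone genes, 3 of 4 fell. Nusap1, which binds and bundles microtubules near chromosomes, had 4041, 4098, 4060 and 3135 reads in cKO MED1, against 5749, 5311 and 5259 in WT, a wide gap (log2 fold change -0.51 with SE 0.11, adjusted p = 0.00823 by limma). Tpx2, the activator of Aurora A, fell by 0.44 and Hmmr, a spindle protein, by 0.37. The midzone bundler Prc1 overlapped, with 3866, 3558, 3487 and 2936 reads in cKO MED1 and 4502, 3798 and 4303 in WT (log2 fold change -0.28, limma adjusted p = 0.0663).

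The 2 cytokinesis genes differed in their call. Ect2, the exchange factor that switches on RhoA at the cleavage plane, fell, with 1684, 1922, 2052 and 1552 reads in cKO MED1, against 2639, 2189 and 2232 in WT (log2 fold change -0.39 with SE 0.11, adjusted p = 0.0285 by limma). Anln, which encodes the ring scaffold anillin, had 1499, 1422, 1291 and 1312 reads in cKO MED1 and 1679, 1406 and 1447 in WT, which overlap (log2 fold change -0.13, limma adjusted p = 0.323). Of the condensin, topoisomerase and chromosome surface genes, 6 of 7 fell. Smc2, a core ATPase of condensin, had 6004, 6080, 6120 and 4912 reads in cKO MED1, against 9191, 7561 and 7839 in WT (log2 fold change -0.50 with SE 0.11, adjusted p = 0.00936 by limma). Its partner Smc4 had 12670, 12400, 11790 and 10240 reads in cKO MED1 and 15520, 14010 and 13170 in WT, apart but not past the threshold (log2 fold change -0.27, limma adjusted p = 0.073). The ratio of Smc2 to Smc4 was 0.474, 0.490, 0.519 and 0.480 in cKO MED1 and 0.592, 0.540 and 0.595 in WT. The condensin I subunit genes Ncapd2, Ncaph and Ncapg fell by 0.39, 0.33 and 0.32. Top2a, the topoisomerase that untangles sister chromosomes, was the most abundant member per kb of exon, at 2780 normalised reads per kb in cKO MED1 and 3790 in WT, and fell by 0.45. Mki67, the surfactant of mitotic chromosomes known as the proliferation antigen Ki-67, fell by 0.43, although cKO MED1 replicate 1 (28700 reads) lay just above WT replicate 2 (28600).

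**Figure D3:**
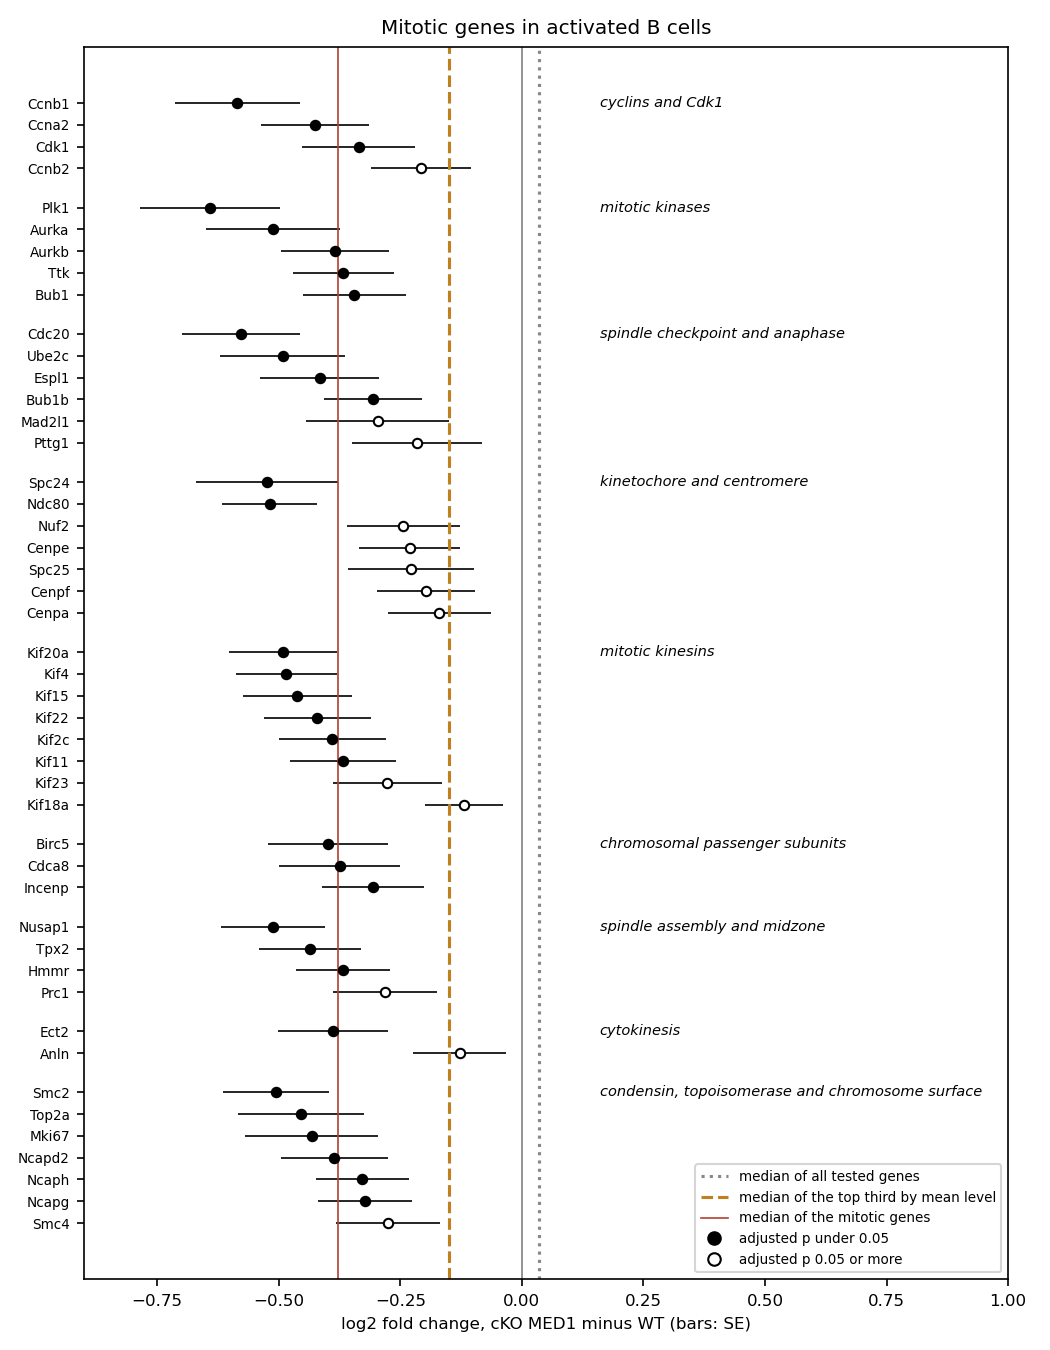
Log2 fold change of each mitotic gene, cKO MED1 minus WT, with its standard error, ordered within role groups. Filled points passed the adjusted p of 0.05. All 46 points lie left of 0, and only Kif18a and Anln lie right of the dashed median (-0.15) of the 6020 tested genes highest in mean level.

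Levels relative to the other 45 members in the same library do not depend on scaling and show how the genes moved against each other. On that measure 6 genes were lower in every cKO MED1 library than in every WT library, namely Plk1, Cdc20, Ndc80, Nusap1, Smc2 and Kif20a, with differences from -0.28 for Plk1 to -0.12 for Kif20a. A further 4 genes were higher in every cKO MED1 library, namely Kif18a (0.26), Anln (0.25), Cenpa (0.21) and Ccnb2 (0.17). The other 36 overlapped. Set against the mean of the 46 in the same way, 3.62% of all tested genes were lower and 43.6% higher without overlap. The mean of the 46 itself fell in cKO MED1, which raises other genes against it. These shares are therefore no like background for the 6 and the 4. The ratios of gene pairs given above and these relative levels were chosen after values had been seen and are descriptions with no test. Of the further pairs examined, the ratio of Plk1 to Kif18a did not overlap between groups. Those of Ndc80 to Spc24, Nuf2 to Spc25, Aurka to Tpx2, Aurkb to Incenp and Espl1 to Pttg1 overlapped. The share of all gene pairs without overlap was not counted.

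Further mitotic genes outside the 46 were counted in the same fit. Of 112 tested, 43 fell (38.4%) and 0 rose, and their median log2 fold change was -0.28. That share stands beside 27.6% of the 6020 highest genes and 14.6% of all tested genes, and its difference from the share of the 46 was not tested. At an adjusted p of 0.05, 19 of 35 other kinetochore genes fell, with the smallest adjusted p-values for Cenpn (-0.61) and Cenpp (-0.62), subunits of the inner kinetochore, and Zwilch (-0.54), part of a checkpoint complex of the outer kinetochore. Of 25 other spindle and cytokinesis genes 7 fell, a share near that of the 6020 highest genes, among them Cdca5 (-0.66), which encodes the cohesin protector sororin, Gtse1 (-0.49) and Dlgap5 (-0.35). Of 16 mitotic entry kinases, phosphatases and partners 6 fell, among them Plk4 (-0.52), the kinase of centriole duplication, Cdc25a (-0.43), a phosphatase that activates Cdk complexes, and Ccnf (-0.51). Of 17 genes of the anaphase-promoting complex and its partners 5 fell, again a share near that of the highest genes, among them its inhibitor Fbxo5 (-0.39) and its subunits Cdc23 (-0.32) and Anapc7 (-0.34), and 1 of 3 condensin II genes, Ncapg2 (-0.45).

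Of 16 factors that act on mitotic promoters, 5 fell, a share little above that of the 6020 highest genes, namely the E2F partner Tfdp1 (-0.55), the NF-Y subunit Nfyc (-0.42), Rbl1 (p107, -0.28), E2f4 (-0.35) and the MuvB subunit Lin54 (-0.37). The activators with the closest link to mitotic genes did not pass. Foxm1 had 1715, 1552, 1376 and 1215 reads in cKO MED1 and 1851, 1544 and 1558 in WT (log2 fold change -0.18, limma adjusted p = 0.275). Mybl2, which encodes B-Myb, had 2443, 2244, 2073 and 1634 reads in cKO MED1 and 3272, 2609 and 2192 in WT (log2 fold change -0.35, limma adjusted p = 0.0979). Both overlapped between groups. The other 2 NF-Y subunit genes gave 0.01 (Nfya) and -0.17 (Nfyb) without passing.

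DNA replication genes had a more negative median than mitotic genes. Of 50, 43 fell (86.0%) and 1 rose, with a median of -0.54. The smallest adjusted p-values were those of the polymerase delta gene Pold1 (-0.93), the clamp loader gene Rfc1 (-0.63) and the licensing factor gene Cdt1 (-0.64). The 1 that rose was the thymidine kinase gene Tk1 (0.31, limma adjusted p = 0.0348). The mean of the mitotic genes minus that of the replication genes, each relative to WT, was 0.148, 0.132, 0.120 and 0.175 in cKO MED1 replicates 1 to 4 and -0.044, -0.008 and 0.052 in WT replicates 1 to 3. The difference between the 2 lists did not overlap between groups. It is given with no test, since both lists were chosen with results of these data known.

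**Figure D4:**
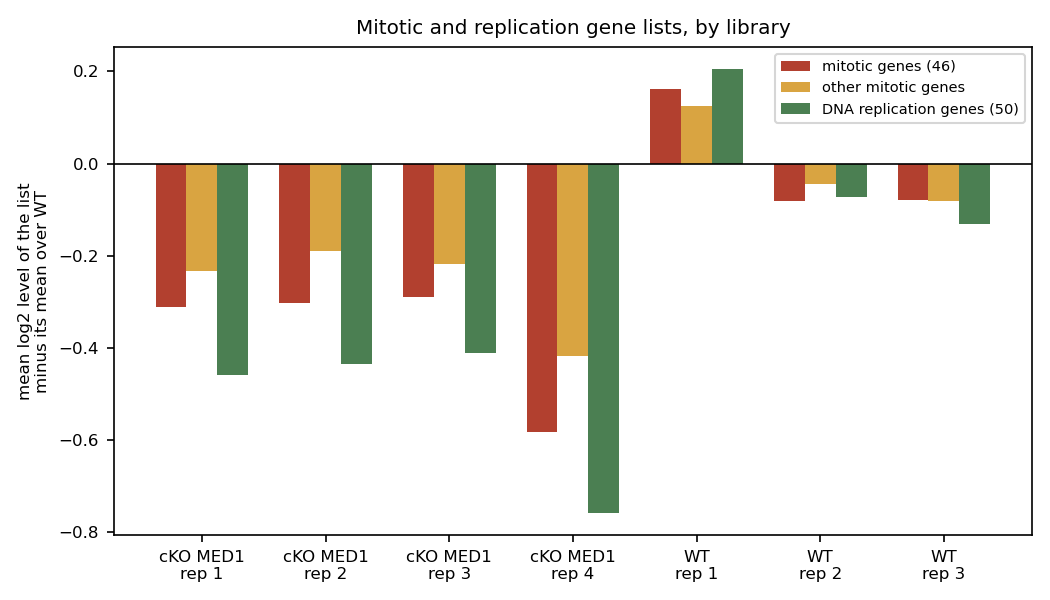
Mean log2 level of the 46 mitotic genes, 112 other mitotic genes and 50 DNA replication genes in each library, minus the list's mean over WT. In each cKO MED1 library the replication bar reaches lowest, the mitotic bar less low and the bar of the other mitotic genes least low.

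The number of calls depended on which genes set the scale. When TMM factors came from the 6020 highest genes alone, 17 of the 46 fell, beside 8.14% of all tested genes. Kif18a and Anln then turned to 0.02 and 0.01. The median of all genes then stood at 0.17, and the members' median at -0.24. With total reads as the scale 42 fell, beside 24.2% of all tested genes. The median of all genes was then -0.21 and the members' median -0.62. Relative to the median of all genes, the mitotic median was -0.41 in the reported fit. A change of scale shifts all genes alike and cannot move that difference, but other choices moved it, to -0.79 with no filter on low values, -0.29 with a filter of CPM 1 and -0.31 with sex in the fit.

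**Figure D5:**
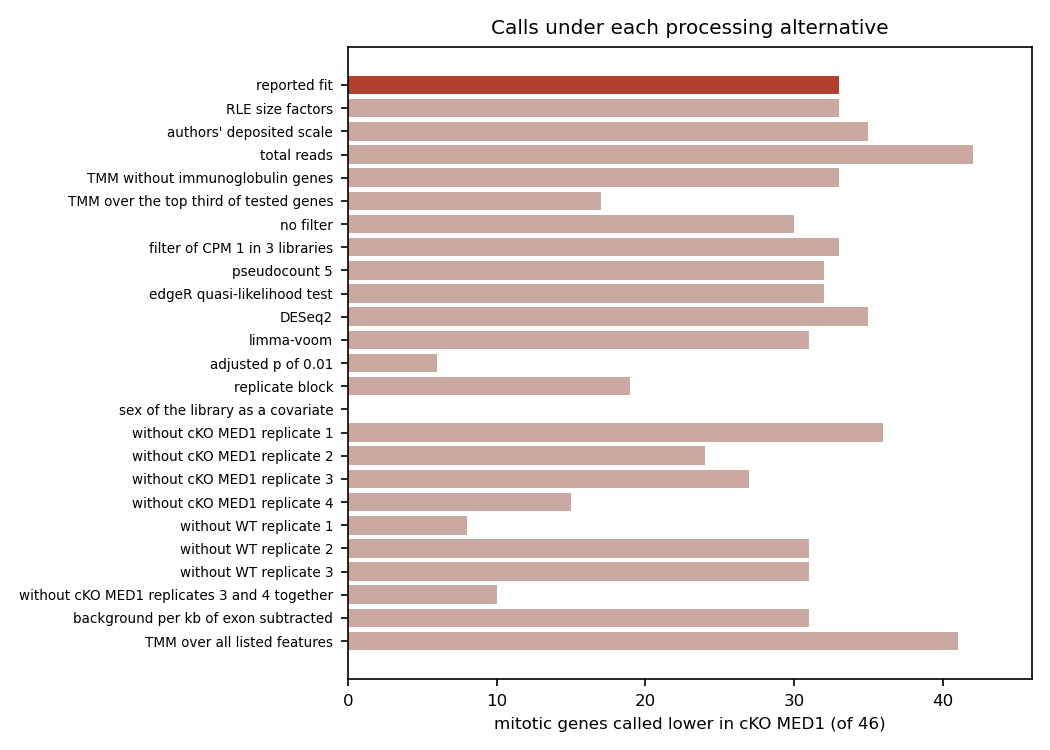
Number of the 46 mitotic genes called lower (horizontal axis) in the reported fit and under each of 24 alternatives. The count is 33 in the reported fit, 42 with total reads, 8 without WT replicate 1 and 0 with sex as a covariate.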

How the data were processed

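The authors deposited 1 table that holds a size-factor-scaled read signal for each gene in each library. In each library 100% of the values are whole multiples of 1 step (tolerance 1e-06), which gave back whole reads. The submitters' processing notes name the build GRCm38 (mm10) and, as tools, DESeq2, R 3.4, featureCounts from Subread 1.5.0-p3 and the aligner STAR 2.4.0a. They do not state strand use in counting, so genes that overlap an antisense gene cannot be told from it. phiX174 (at most 0.000383% of reads) was left out.

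Genes were kept with filterByExpr (18062) and brought to a common library of 48019763 reads by TMM factors from edgeR 4.0.16. Log2(normalised reads + 1) was tested in limma 3.58.1 under R 4.3.3, with the variance prior following mean level and a Benjamini-Hochberg threshold of 0.05. Fold changes are cKO MED1 minus WT on that scale and understate changes of low genes. EdgeR's quasi-likelihood test on the recovered reads called 5340 genes, and the limma fit 5065. The script was tested on simulated data. Positions and exonic lengths came from GENCODE M21 by symbol. Promoter windows came from RefSeq (GRCm38.p6), with the first listed start where a gene had several.

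The 46 genes, the lists and the alternatives were chosen with earlier results of these data known. By rule, values per library are given for the member with the largest and the smallest change in each role group, and 3 genes per direction from each other list. Other genes were named after their values were seen, as were the gene pairs. The alternatives were RLE factors (DESeq2 1.42.0), the deposited scale, total reads, TMM without immunoglobulin genes or over the highest genes, other filters, a pseudocount of 5, edgeR, DESeq2, limma-voom, an adjusted p of 0.01, a replicate block, sex, libraries left out and subtraction of a background. TMM over all listed features was added after seeing the data. Reads are PCR products without molecular identifiers.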

Additional observations from a re-analysis of the deposited data

Results flagged for a closer look

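In 5 of the 46 genes 1 of the 4 cKO MED1 libraries stood apart by Dixon's criterion for 4 samples. Chance gives about 1 in 20 such groups, and the genes share libraries. cKO MED1 replicate 4 was the low library in 4 of them, with 1201 normalised reads of Cdca8, 3291 of Tpx2, 3135 of Nusap1 and 4912 of Smc2. cKO MED1 replicate 1 was the high library for Cenpe, with 4477 reads, which overlapped the WT range. cKO MED1 replicate 4 had the fewest recovered reads (31937372) and the most receptor-gene reads, and the part of either in these values was not tested.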

How the results depend on the processing

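Med1 stayed lower and past the threshold in all 24 alternatives. The count of mitotic genes called lower, 33 in the reported fit, was 17 with TMM over the highest genes, 6 at a threshold of 0.01, 10 without cKO MED1 replicates 3 and 4, 19 with the replicate block and 0 with sex as a covariate. Of all tested genes 8.14%, 4.4%, 7.36%, 10.1% and 0.659% were called lower in these fits, in that order, and 14.6% in the reported fit. Leaving out 1 library gave 8 to 36, lowest without WT replicate 1, beside 5.25% to 17.5% of all tested genes. The shares of the highest genes in these alternatives were not counted. Of all tested genes, 5065 were called in the reported fit, 1307 at the threshold of 0.01, 228 with sex, 2156 without cKO MED1 replicates 3 and 4, and 1557 to 6128 with 1 library left out. The members' median of -0.379 moved to -0.622 with total reads and -0.536 with TMM over all listed features, and ranged from -0.482 to -0.283 with 1 library left out. Signs turned for Anln (0.0128) and Kif18a (0.0214) with TMM over the highest genes, and for Mad2l1 (0.0513) and Spc25 (0.0622) with sex. Of 1104 single-gene values in the alternatives, 886 kept direction and side of the threshold, 187 lost and 27 gained the call. Deviations of same-numbered libraries correlated at 0.515, -0.235 and 0.163 for numbers 1 to 3. These 3 values cannot decide whether replicate numbers pair the libraries, and the reported fit used no pairing. The share of calls that were higher was 47.8%, against 31.8% with total reads and 69.2% with TMM over the highest genes. The causes of these moves were not tested.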
